A study of Mus musculus with 75 samples.

Results

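Livers of weanling mice whose dams had drunk tributyltin (TBT) were compared with livers of vehicle offspring of the same age. The libraries were chosen by their labels, as those of 3-week-old mice with the exposure given as Tributyltin (TBT) or as Vehicle. This took 16 of the 75 libraries of the series, 8 of each exposure. A pair of vehicle libraries, S1 and S16, carry mouse number 3 in their titles and were summed, so that 8 TBT and 7 vehicle mice entered the comparison. All mice were C57Bl/6 and, by their labels, male, and every library belonged to sequencing batch 1. The dams drank TBT at a concentration of 3.07 µM, a daily dose of 0.5 mg/kg, up to weaning, so the pups were exposed only through the mother, and the livers were taken at the end of exposure. The labels name no litter or dam. Pups of a litter share their dose and their mother, so the p-values measure the spread between these mice and may be too small if several of them were littermates.

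TBT is an organotin compound, used in the past in antifouling paints, that binds and activates the retinoid X receptor (RXR) and the peroxisome proliferator-activated receptor gamma (PPARgamma). RXR pairs with PPARs, liver X receptors (LXR), retinoic acid receptors and the xenobiotic receptors CAR and PXR, and these pairs regulate genes of fat, cholesterol, bile acid and drug metabolism. The weanling liver is also losing its fetal role in making blood cells while the pups pass from fat-rich milk to solid food, a change that lowers fat oxidation and turns on lipid synthesis.

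Total counts ran from 6.76 to 19.4 M (mega) per library, with S1 the shallowest. The libraries had the RNA of hepatocytes, with albumin (Alb) at 101000 to 160000 counts per M counts (CPM) in every mouse. The library labelled TBT 4 went against its sex label, with 314 CPM of Xist, the RNA of the silenced X chromosome in females, where the other mice had 0.52 to 1.77 CPM. Its Y-linked genes Ddx3y, Eif2s3y, Kdm5d and Uty summed to 6.38 CPM, where the other mice had 172 to 212 CPM, and results are therefore given with and without it. S1 held 13.5% mitochondrial counts, against 2.3 to 4.16% in the other libraries. S1 lay 0.771 from S16 in root mean square log2 CPM, nearer than to any other library (0.806 to 0.898). S16, however, lay nearer to every other library (0.516 to 0.672) than to S1. Most other pairs of libraries also lay closer to each other (median 0.555). In TBT 8, 11.7% of the counts fell on the ribosomal RNA locus, against at most 1.07% elsewhere. Vehicle 1 and TBT 7 carried skeletal muscle RNA, with 68.9 and 89.7 CPM of the muscle actin Acta1, against at most 0.582 CPM in the others.

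No gene reached an adjusted p under 0.05 (edgeR quasi-likelihood test with Benjamini-Hochberg adjustment), 0% of the 14050 tested. DESeq2 and limma-voom also called 0. At an unadjusted p under 0.05, edgeR counted 253 genes higher in TBT livers (1.80% of those tested) and 221 lower (1.57%), DESeq2 counted 651 of 44030 genes (1.48%) and limma-voom 483 of 14050 (3.44%). The edgeR shares are the background against which the gene lists are read below. Without TBT 4 the counts were 216 higher (1.56%) and 211 lower (1.52%), again with 0 at an adjusted p under 0.05. The median size of a log2 fold change was 0.09 with a median standard error (SE) of 0.13, and the 95% intervals of 12800 genes (91.1%) lay within a 2-fold change in either direction. Genes that lay higher had a median exonic length of 5500 bases and those that lay lower 3176, against 4309 for all tested genes. An unplanned edgeR fit removed each library's trend with gene length. It called 0 genes at an adjusted p under 0.05. At an unadjusted p under 0.05 it counted 210 genes higher and 219 lower, of 14050. The cause of the length difference was not tested.

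**Figure D1:**
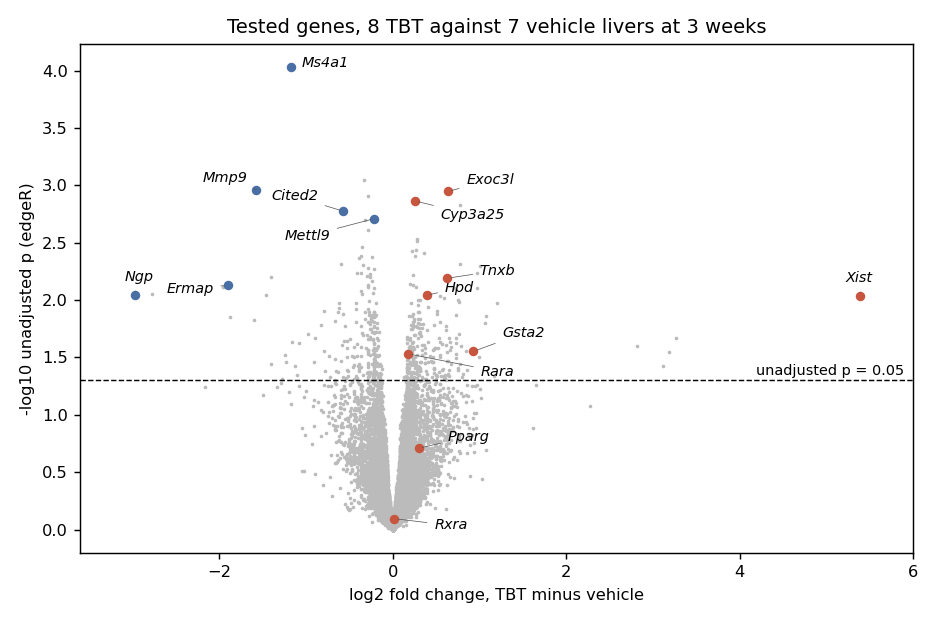
Each point is 1 of the 14050 tested genes, with the log2 fold change of TBT against vehicle livers on the horizontal axis and the −log10 of the unadjusted edgeR p on the vertical axis. Most genes lie within a narrow column around 0, with the B cell gene Ms4a1 at the top left, and Xist stands far to the right through the single library TBT 4.

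Genes of blood cells were among those with the largest negative differences. Of 6 tested neutrophil genes, 5 lay lower in TBT livers at an unadjusted p under 0.05, against 1.57% of all genes. Their median log2 fold change was -1.92, and that of all genes 0.01. In limma-voom 1 of the 6 had an unadjusted p under 0.05. The highest values were those of a pair of vehicle mice. Ngp, a protein of neutrophil granules, had 22.4 CPM in vehicle 3, 6.72 in vehicle 5 and 2.09 in vehicle 7, while vehicles 1, 2, 4 and 6 had 0.174 to 0.639 CPM. The TBT livers had 0.0708 to 0.984 CPM of Ngp with a median of 0.764, above the vehicle median of 0.639. Lactoferrin (Ltf) behaved alike, with 24 CPM in vehicle 3, 6.92 in vehicle 5, at most 1.86 in the other vehicles and 0.107 to 1.26 in TBT livers. The calprotectin subunits S100a8 and S100a9 reached 16.7 and 28.4 CPM in vehicle 3 and stayed at or under 2.22 and 4.03 CPM in TBT livers. Both libraries of vehicle 3 carried this RNA, with Ngp at 27.1 CPM in S1 and 20.2 in S16.

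Without vehicle 3, 2 of the 6 neutrophil genes lay lower (1.60% of all genes in that fit), with a median log2 fold change of -1.12. Without vehicles 3 and 5, which were left out after their values were seen, 1 lay lower (1.22% of all genes) and the median was -0.14. The remaining gene was Mmp9, a matrix metalloproteinase stored in neutrophil granules. Mmp9 ran from 0.988 to 5.92 CPM in vehicles (median 2.43) and from 0.268 to 1.42 CPM in TBT livers (median 0.746). Vehicles 4 and 6 lay within the TBT range, and the other 5 vehicles lay above every TBT liver. The log2 fold change of Mmp9 was -1.57 ± 0.41 (SE), with an adjusted p of 0.999 in edgeR, and -1.01 without vehicles 3 and 5. The summed level of the 12 neutrophil markers was 119 CPM in vehicle 3 and 43.7 in vehicle 5, 6.16 to 12.8 in the other vehicles and 4.45 to 12.4 in TBT livers. In bulk liver, fewer cells of a type and less RNA per cell cannot be told apart.

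Erythroid genes pointed the same way. All 12 tested members had negative log2 fold changes, with a median of -0.48, which was -0.44 without TBT 4, -0.36 without vehicle 3 and -0.39 without vehicles 3 and 5. At an unadjusted p under 0.05, 4 lay lower, against 1.57% of all genes. Among them were Ermap, Epb42 and Slc4a1, which encode proteins of the red cell membrane. Slc4a1, the anion exchanger of red cells, had 67.8 CPM in vehicle 3 and 7.2 to 28.3 CPM in the other vehicles, against 4.1 to 31 in TBT livers with a median of 8.22. The groups overlapped widely, since vehicles 1, 2 and 7 lay among the TBT livers and TBT 3 lay above all vehicles but vehicle 3. Ermap had a vehicle median of 2.39 CPM (0.93 to 9.94) and a TBT median of 0.682 (0.0546 to 2.76), a log2 fold change of -1.9 ± 0.62 (SE) with an edgeR adjusted p of 0.999. The count of erythroid genes was 2 without TBT 4. It was also 2 when vehicle 3, TBT 2, TBT 5, TBT 6 or TBT 7 was left out singly. In those fits 177 to 226 of all genes lay lower. Without vehicles 3 and 5 the erythroid count was 0, and 1.22% of all genes lay lower. The haemoglobin genes differed less. Hbb-bs had a median of 366 CPM in vehicles and 378 in TBT livers, and Hba-a1 had 172 and 147, with the highest value of both in vehicle 6. These haemoglobin genes have near-identical copies, so their single values are uncertain.

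Ms4a1, the gene of the B cell surface protein targeted by rituximab, had the smallest p of all genes. It ran from 1.46 to 3.11 CPM in vehicles (median 2.17) and from 0.536 to 1.48 CPM in TBT livers (median 1.04). All vehicles but vehicle 6 lay above every TBT liver, and vehicle 6 (1.46 CPM) lay just under TBT 6 (1.48 CPM). The log2 fold change was -1.17 ± 0.24 (SE) with an unadjusted p of 9.34e-05 and an adjusted p of 0.999 in edgeR. It was -1.08 without TBT 4 and -0.97 without vehicles 3 and 5. Ms4a1 lies on chromosome 19 at 11249675 to 11266241 on the minus strand (GRCm38). Of 9 tested B and plasma cell genes 2 lay lower, against 1.57% of all genes, and 0 lay higher, against 1.80%. The 2 were Ms4a1 and the IgM heavy chain gene Ighm. The log2 fold changes of 8 of the 9 were negative, with a median of -0.44, and the median was -0.34 without TBT 4 and 0.17 without vehicles 3 and 5. Ighm had 10.6 to 30.1 CPM in vehicles and 9.65 to 17.7 in TBT livers, and its log2 fold change went from -0.45 to -0.15 without vehicles 3 and 5. The light chain gene Igkc had a log2 fold change of -0.05 ± 0.25 (SE), and the B cell receptor subunit Cd79b one of -0.2 ± 0.3.

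**Figure D2:**
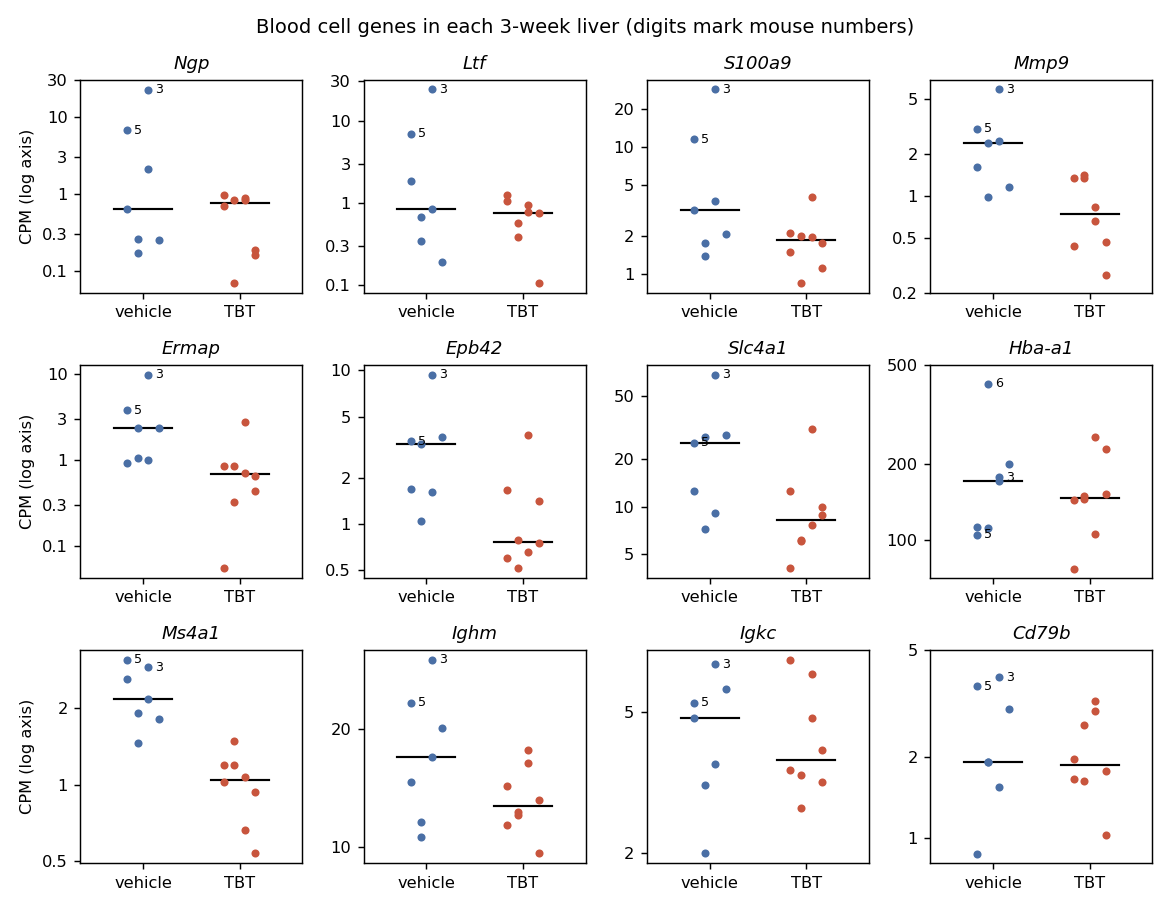
CPM on a log axis of 4 neutrophil, 4 erythroid and 4 B cell genes, with 1 point per mouse, vehicle in blue, TBT in red and a bar at the group median. Vehicles 3 and 5 carry the high neutrophil values, whereas for Ms4a1 nearly all vehicles lie above the TBT livers.

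A further 4 genes passed adjustment only when genes of low counts were kept in the edgeR test. With every gene of at least 1 count, 3 of 44030 genes (0.00681%) had an adjusted p under 0.05 in edgeR, all lower in TBT livers: Mmp9, Alox15 and Cited2. In that fit 8.58% of genes had an unadjusted edgeR p under 0.05, against 3.37% with the filter. The unadjusted edgeR p of Mmp9 went from 0.00109 to 1.51e-08, while its log2 fold change went from -1.57 to -1.59. DESeq2, run on the same 44030 genes, called 0 at an adjusted p under 0.05 and 1.48% at an unadjusted one. Alox15, a lipoxygenase of eosinophils and resident macrophages, was too low to be tested in the main fit. It had 3.37, 4.07 and 1.29 CPM in vehicles 1, 3 and 4 and 0.1 to 0.416 CPM in the other vehicles, against 0 to 0.3 CPM in TBT livers. The log2 fold change of Alox15 was -2.99 in the edgeR fit without the filter (edgeR adjusted p = 1.77e-05), and 3 mice carried the difference. Cited2, a coregulator that binds the acetyltransferases CBP and p300, ran from 13.8 to 29.8 CPM in vehicles (median 21.2) and from 11.2 to 15.9 in TBT livers (median 14.2). Vehicles 1, 2, 3 and 5 lay above every TBT liver, and vehicles 4, 6 and 7 lay among them. The libraries of vehicle 3 differed, with 31 CPM of Cited2 in S1 and 15.9 in S16, level with the highest TBT liver. Cited2 had a log2 fold change of -0.57 ± 0.15 (SE) with an edgeR adjusted p of 0.999 among the 14050 genes and 0.00944 without the filter on low counts.

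When TBT 4 was also left out, 5 of 43889 genes (0.0114%) passed in edgeR without the filter, and 0 passed in DESeq2. The 5 were the same 3, and Hpd and Tnxb, which lay higher. Hpd encodes hydroxyphenylpyruvate dioxygenase, an enzyme of tyrosine breakdown. It ran from 1340 to 2110 CPM in vehicles (median 1780) and from 1590 to 2770 in TBT livers (median 2120), with TBT 4 the lowest TBT liver and TBT 1, 2, 3 and 6 above all vehicles. The log2 fold change of Hpd was 0.39 ± 0.13 (SE) with TBT 4 and 0.45 without it. Tnxb, the matrix glycoprotein tenascin X, ran from 22.2 to 37.4 CPM in vehicles and from 28.6 to 81.5 in TBT livers, and here TBT 4 was the highest. Its log2 fold change was 0.63 ± 0.2 (SE) with TBT 4 and 0.48 without it.

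Among genes of xenobiotic metabolism, which take up, oxidise, conjugate and export foreign compounds, 4 of 24 tested lay higher in TBT livers at an unadjusted p under 0.05, against 1.80% of all genes, and 0 lay lower. The median log2 fold change was 0.19, and 20 of the 24 were positive. Cyp3a25, a cytochrome P450 on chromosome 5 at 145977194 to 146009618 (minus strand, GRCm38), was the only gene of all tested (0.00712%) whose TBT livers all lay above the vehicles. Among the 6435 assignments of the mice to groups of this size, 1 orders a gene this way, a larger share than 0.00712%. Cyp3a25 had 253 to 305 CPM in vehicles (median 286) and 305 to 364 in TBT livers (median 349), so that vehicle 4 and TBT 6 met at the edge. The log2 fold change of Cyp3a25 was 0.26 ± 0.07 (SE), 0.26 without TBT 4 and 0.22 without vehicles 3 and 5, with an edgeR adjusted p of 0.999. The related Cyp3a11 had a median of 1580 CPM in vehicles and 1370 in TBT livers, with a log2 fold change of -0.09 ± 0.17 (SE).

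The other 3 genes of this list overlapped between the groups. Abcc3, which exports conjugates into the blood, had 41.7 to 84 CPM in vehicles and 55.4 to 109 in TBT livers, highest in TBT 4. The glutathione transferase gene Gsta2 had 1.39 to 3.89 CPM in vehicles and 1.09 to 9.86 in TBT livers, again highest in TBT 4. Its log2 fold change was 0.93 ± 0.39 (SE) with TBT 4 and 0.56 without it. Ugt1a6a, a glucuronosyltransferase gene, had a median of 2.7 CPM in vehicles and 4.3 in TBT livers. Gsta2 has near-identical copies and Ugt1a6a shares exons with the other Ugt1a genes, so their counts are uncertain. Without TBT 4, and likewise without vehicle 3, where 1.80% of all genes lay higher, Cyp3a25 alone of the list had an unadjusted p under 0.05. The log2 fold changes of the other 3 stayed positive. That of Ugt1a6a was 0.45 in all mice, 0.42 without TBT 4 and 0.44 without vehicle 3, and that of Abcc3 was 0.37, 0.28 and 0.34. Gsta2 had 0.87 without vehicle 3. The count was also 1 without vehicle 2, and 2 when vehicle 1, vehicle 7, TBT 5 or TBT 7 was left out. In those fits 206 to 354 of all genes lay higher. Cyp2c29, a drug-metabolising gene that responds to CAR, had a log2 fold change of -0.02 ± 0.13 (SE).

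The RNA levels of the receptors that TBT binds, and of their partners, differed little between the groups. Of 20 tested nuclear receptor genes 1 lay higher at an unadjusted p under 0.05, against 1.80% of all genes. It was the retinoic acid receptor gene Rara. For 19 of the 20 the 95% interval stayed within a 2-fold change. Rara ran from 18.8 to 25.6 CPM in vehicles and from 22.3 to 26.7 in TBT livers, a log2 fold change of 0.18 ± 0.08 (SE). Without TBT 4 its log2 fold change was 0.16, and 0 receptors lay higher, against 1.56% of all genes. Rxra, the main RXR gene of liver, had 370 to 528 CPM in vehicles and 382 to 508 in TBT livers, with a log2 fold change of 0.02 and a 95% interval of -0.17 to 0.22. Rxrb had a log2 fold change of 0.07 (-0.17 to 0.31), and Rxrg 0.18 (-0.34 to 0.7). Pparg had 3.82 to 9.76 CPM in vehicles and 5.1 to 13.6 in TBT livers, with a log2 fold change of 0.3 (-0.17 to 0.76). Its highest value was in TBT 5. Ppara, the PPAR of fat oxidation, had a log2 fold change of -0.11 (-0.48 to 0.26), the LXR gene Nr1h3 -0.04 (-0.24 to 0.16), the PXR gene Nr1i2 -0.08 (-0.4 to 0.23) and the CAR gene Nr1i3 0.27 (-0.53 to 1.07).

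Of the targets of these receptors, 0 of 9 PPARgamma, 0 of 25 PPARalpha, 0 of 10 LXR and 0 of 6 retinoic acid target genes had an unadjusted p under 0.05 in either direction. Their median log2 fold changes were -0.08, -0.02, 0.06 and -0.01. The fat droplet gene Cidec, a PPARgamma target, reached 14.4 CPM in TBT 5, the liver with the highest Pparg, against 1.05 to 3.74 CPM in vehicles and 1.08 to 5.04 in the other TBT livers. Its log2 fold change was 0.67 ± 0.5 (SE). The mean log2 CPM of the 9 PPARgamma targets, relative to the vehicle mean, was 0.37 in TBT 5, against -0.3 to 0.41 in vehicles. The fatty acid transporter Cd36 and the lipase Lpl had log2 fold changes of 0 ± 0.24 and -0.08 ± 0.18. The LXR target Abcg5, a subunit of the sterol exporter of bile, had 89.4 to 120 CPM in vehicles and 93.7 to 152 in TBT livers, a log2 fold change of 0.21 ± 0.11. The 95% interval stayed within a 2-fold change for 6 of the 9 PPARgamma and 18 of the 25 PPARalpha targets, and PPARalpha targets varied widely in both groups. The fatty acid hydroxylase Cyp4a14 spanned 46.1 to 834 CPM in vehicles and 129 to 1990 in TBT livers, lowest in vehicle 1 and highest in TBT 8. The mean log2 CPM of the 25 targets, relative to the vehicle mean, ran from -1.09 (vehicle 1) to 0.57 in vehicles and from -0.62 to 0.98 (TBT 8) in TBT livers.

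**Figure D3:**
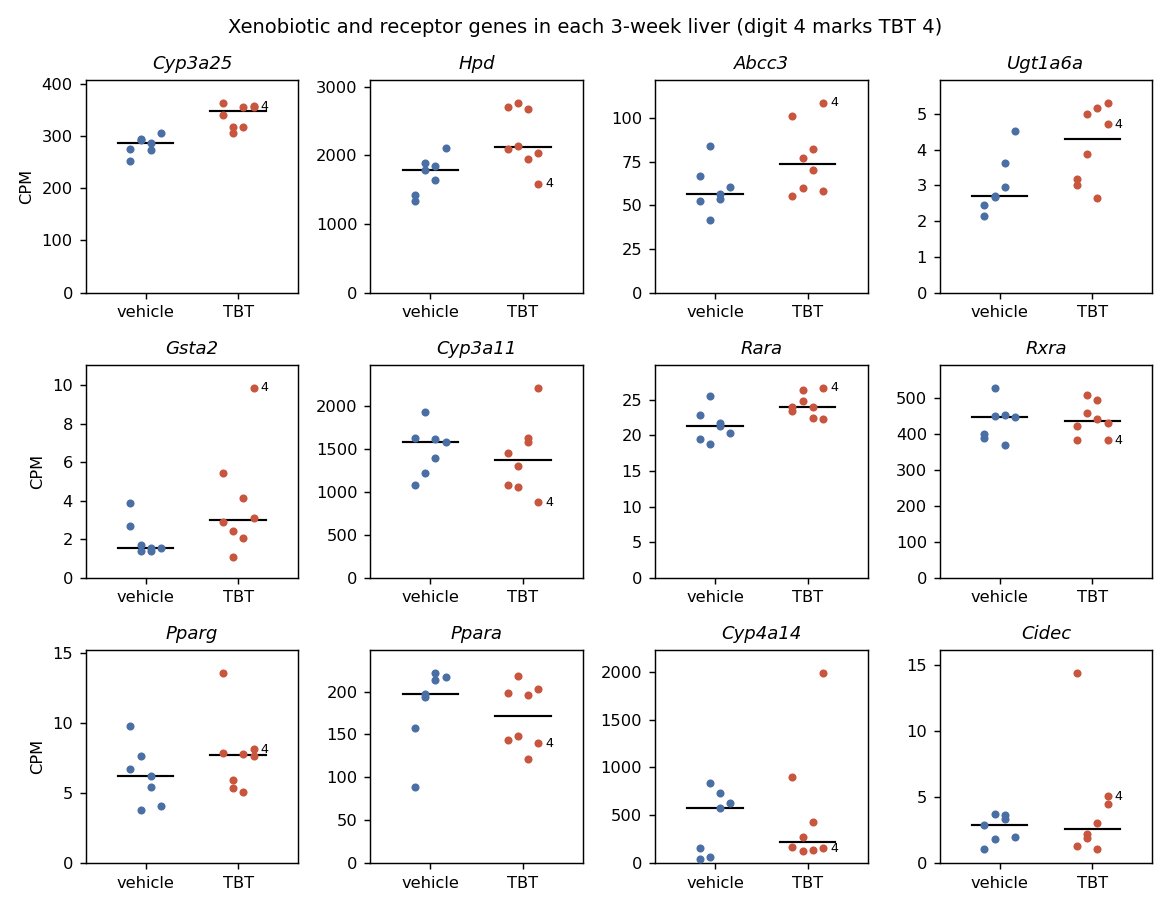
CPM on linear axes from 0 of xenobiotic genes, the tyrosine catabolism gene Hpd, receptors and receptor targets, with 1 point per mouse, vehicle in blue, TBT in red, a bar at the group median and the digit 4 at TBT 4. Cyp3a25 separates the groups with points meeting at 305 CPM, whereas Rxra, Pparg and Ppara overlap, and Cyp4a14 spreads widely in both groups.

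Other genes were named for their small p. Mettl9, a histidine methyltransferase gene on chromosome 7, and Borcs7, which encodes a subunit of a complex that positions lysosomes, were the genes whose TBT livers all lay below the vehicles (0.0142% of those tested). The 1 of 6435 assignments of the mice that orders a gene this way is a larger share. Borcs7 was named after its values were seen. Mettl9 ran from 30 to 34.6 CPM in vehicles and from 25.4 to 29.3 in TBT livers, with a log2 fold change of -0.21 ± 0.06 (SE). Borcs7 ran from 5.47 to 7.09 CPM in vehicles and from 4.67 to 5.41 in TBT livers. The selenoprotein gene Selenof had a median of 134 CPM in vehicles and 110 in TBT livers, and the translocon-associated subunit gene Ssr4 had 74.7 and 62.5. The ubiquitin-conjugating enzyme gene Ube2a had a log2 fold change of -0.28 ± 0.08 (SE).

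Among genes that lay higher, Exoc3l, an exocyst-related gene, had the smallest p, with 1.98 to 2.8 CPM in vehicles, 2.44 to 5.25 in TBT livers and a log2 fold change of 0.64 ± 0.17 (SE). Only TBT 6 lay within the vehicle range. Among the genes of smallest p that lay higher, the lincRNA gene Carmn ran from 0.401 to 1.62 CPM in vehicles and from 1.14 to 2.79 in TBT livers. Its log2 fold change was 1.01 ± 0.32 (SE), and 0.88 without TBT 4. The mitochondrial fusion gene Mfn2 ran from 67.3 to 87.7 CPM in vehicles and from 84.7 to 98.8 in TBT livers, and Atad3a from 29.6 to 41.2 and from 40.5 to 50.3. The nucleolar gene Mybbp1a had a log2 fold change of 0.26 ± 0.08 (SE), the adaptor of insulin and leptin signalling Sh2b1 0.28 ± 0.08, the cadherin gene Fat4 0.36 ± 0.11 and the tRNA deaminase gene Adat2 0.78 ± 0.21. For all of these genes the edgeR adjusted p was 0.999.

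The remaining lists gave few or no members at an unadjusted p under 0.05. Of 36 lists, 24 had 0 such members, 7 had 1, the xenobiotic, neutrophil, erythroid and B cell lists had more, and the skeletal muscle list had no tested member. Markers of hepatocytes, macrophages and sinusoidal endothelium were level. Hepatocyte markers had a median log2 fold change of -0.02, macrophage and Kupffer cell markers -0.06 and sinusoidal endothelial markers 0.03, each with 0 members at that threshold. Bile duct markers had a median of 0.3, with 6 of 7 positive and 1 higher at that threshold (1.80% of all genes). Stellate cell and fibrosis markers had 0.13, with 9 of 13 positive and 0 at that threshold. The Kupffer cell lectin gene Clec4f had a median of 133 CPM in vehicles and 147 in TBT livers, and Stab2, a scavenger receptor of the sinusoidal endothelium, 194 and 206. Col1a1, a collagen of fibrosis, had 59.1 to 119 CPM in vehicles and reached 194 in TBT 2 and 360 in TBT 4, with a log2 fold change of 0.69 ± 0.37 (SE). Hamp, the iron hormone hepcidin, varied from 0.0868 to 68.2 CPM in vehicles and from 5.77 to 167 in TBT livers. Bcl6, a repressor that growth hormone signalling turns off, was listed lower (log2 fold change -1.1 ± 0.5) through 64.9 and 47.5 CPM in vehicles 2 and 4, where the other vehicles had 7.85 to 12.1 CPM.

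Over the transcriptome as a whole, no difference in the spread among livers was detected between the groups. The standard deviation (SD) of log2 CPM was larger among TBT livers for 7438 of 14050 genes (52.9%), and the median log2 ratio of the SDs was 0.045 (two-sided exact permutation test over 6435 assignments of the mice, p = 0.759). It was -0.003 without TBT 4 (exact permutation p = 0.981). Particular gene lists stood away from this median, in both directions, and no test of a list was made.

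Of the lists with at least 5 tested genes, cholesterol synthesis had the highest ratio of the SD among TBT livers to that among vehicles. All 22 genes had a larger SD among TBT livers, with a median SD ratio of 2.41. None had an unadjusted p under 0.05 in edgeR, and 21 of the 22 log2 fold changes were negative, with a median of -0.18 (-0.24 without TBT 4). The mean log2 CPM of the list stayed within -0.13 to 0.17 of the vehicle mean in the 7 vehicles. It was -1.2 in TBT 6, -0.86 in TBT 8 and -0.62 in TBT 5, and 0.38 in TBT 1. Idi1, the isomerase of the isoprenoid pathway, had 38.1 to 58.6 CPM in vehicles, 14.2 in TBT 6, 23.7 in TBT 5 and 28.2 in TBT 8. Insig1, the sterol-regulated anchor of SREBP processing, had 224 to 422 CPM in vehicles, 114 in TBT 6 and 135 in TBT 8. Insig1 and the pathway enzymes are all known targets of SREBP factors.

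Lipogenesis followed in part. The stearoyl-CoA desaturase Scd1 had 9500 to 20600 CPM in vehicles, 1580 in TBT 6, 4330 in TBT 8, 8130 in TBT 5 and 16400 to 21500 in the other TBT livers. Fatty acid synthase (Fasn) had 945 to 1910 CPM in vehicles and 559 to 3060 in TBT livers, lowest in TBT 5 and TBT 8. Of 21 lipogenesis genes 18 had a larger SD among TBT livers, with a median log2 SD ratio of 0.65. These 3 livers did not share a level of the PPARalpha targets, whose list mean was 0.98 in TBT 8, 0.55 in TBT 5 and -0.46 in TBT 6.

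Genes of mitosis and replication also all had a larger SD among TBT livers, 24 of 24 with a median SD ratio of 2.31. The list mean was 1.23 in TBT 4 and 0.47 in TBT 1, and -1.03, -0.91 and -0.88 in TBT 6, 8 and 2, against -0.31 to 0.44 in vehicles. Mki67, a marker of dividing cells, had 238 CPM in TBT 4 and 34.8 in TBT 6, with 66.4 to 176 in vehicles. The replication clamp Pcna had 110 CPM in TBT 4 and 21.6 in TBT 8, with 33.5 to 47.3 in vehicles. Without TBT 4, 23 of the 24 mitosis genes and 21 of the 22 cholesterol genes kept the larger SD. Without TBT 4, 6 and 8, chosen after their values were seen, 18 of each list did. In those 2 reduced sets, 6941 and 5150 of all 14050 genes had the larger SD among TBT livers. TBT 4 is the library that went against its sex label and TBT 8 the one with ribosomal RNA counts, and the part of these features in the spread was not tested.

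**Figure D4:**
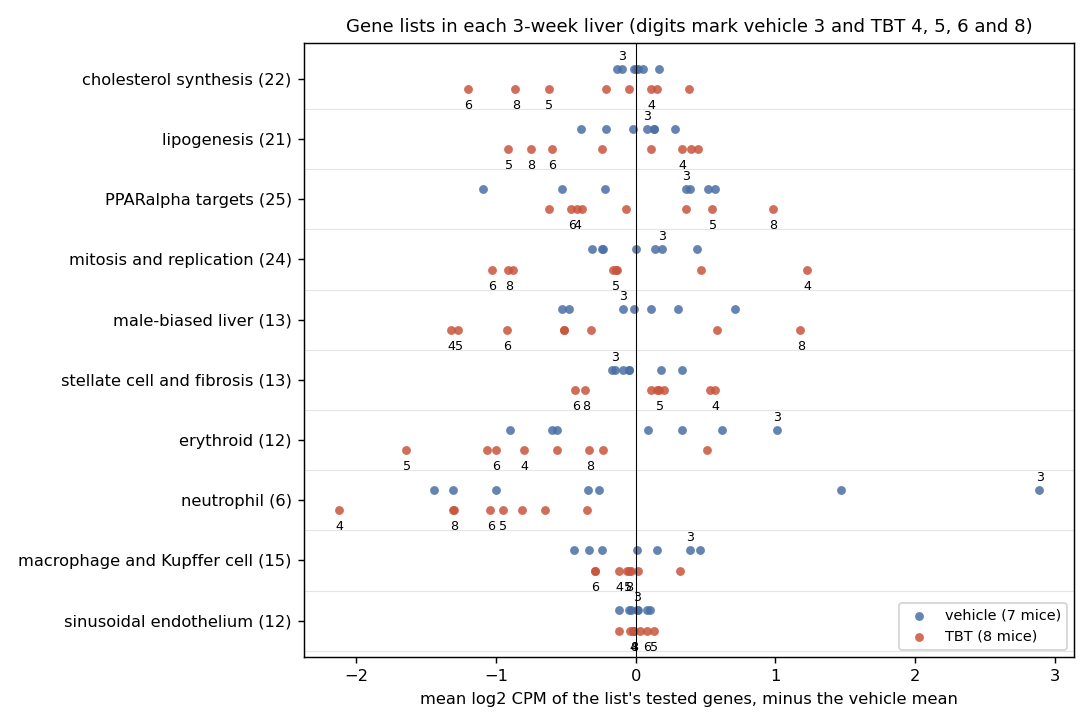
Mean log2 CPM of the tested genes of 10 lists in each mouse, relative to the mean of the 7 vehicles, with vehicle in blue and TBT in red and the number of genes in brackets. Cholesterol synthesis and mitosis genes spread more widely among the TBT livers, and neutrophil genes among the vehicles.

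Neutrophil, macrophage and sinusoidal endothelial genes were more even among TBT livers. The SD was larger there for 0 of 6 neutrophil genes, 2 of 15 macrophage and Kupffer cell genes and 2 of 12 sinusoidal endothelial genes, with median log2 SD ratios of -1.27, -0.55 and -0.41, against 52.9% of all genes. Without vehicle 3 it was larger for 2 of the 6 neutrophil genes, with a median of -0.79. Of other blood cell lists, 2 of 12 erythroid genes had the larger SD among TBT livers (median -0.19). So did 3 of 9 B and plasma cell genes (-0.29) and 3 of 5 T and NK cell genes (0.01). Without vehicle 3 the counts were 6 of 12 erythroid and 4 of 9 B and plasma cell genes, against 8061 of all 14050 genes. The macrophage receptor gene Csf1r ran from 82.7 to 140 CPM in vehicles and from 98.8 to 136 in TBT livers. Male-biased liver genes were uneven in the other direction, with 12 of 13 more variable among TBT livers, 10 without TBT 4 and 8 without TBT 4 and 8. Of all 14050 genes, 6941 were more variable among TBT livers without TBT 4 and 6022 without TBT 4 and 8. The median SD ratio of the male-biased genes was 1.67 in all mice and 1.38 without TBT 4 and 8. TBT 4 went against its sex label, and its part in this spread was not tested. The list mean was -1.32 in TBT 4, -1.27 in TBT 5 and 1.18 in TBT 8, against -0.53 to 0.71 in vehicles. The mean of the female-biased liver genes was also lowest in TBT 4, at -1.24, against -0.9 to 0.7 in vehicles. The urinary protein gene Mup3, a growth hormone target, had 90.5 to 771 CPM in vehicles, 34.2 in TBT 4 and 1820 in TBT 8.

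**Figure D5:**
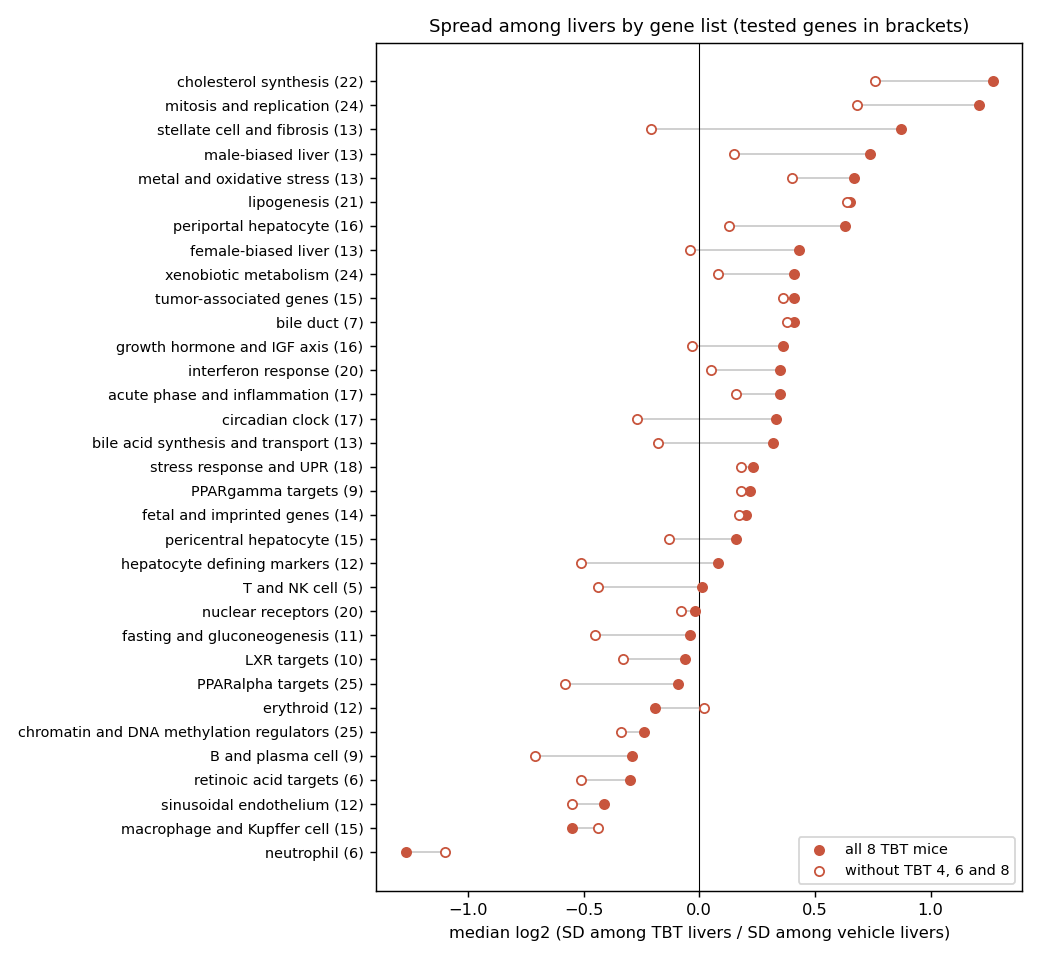
Median log2 ratio of the SD among TBT livers to the SD among vehicle livers for each list with at least 5 tested genes, with all TBT mice (filled) and without TBT 4, 6 and 8 (open). Cholesterol synthesis and mitosis genes stand at 1.27 and 1.21 at the top, neutrophil genes at -1.27 at the bottom, and most lists lie closer to 0 without those 3 livers. The median of all tested genes, not drawn, moves from 0.05 to -0.26 without them.

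The 3-week differences were followed to later ages in libraries of other mice. At 5 months, 16 low-risk TBT livers were compared with 8 vehicles in a fit that also held 10 high-risk livers and the sequencing batch. At 10 months, 5 low-risk livers were compared with 6 vehicles in a fit with uninvolved high-risk livers. The mice of these ages had also been exposed until weaning, and low-risk and high-risk are the labels' classes for tumor development. Of the genes at an unadjusted p under 0.05 at 3 weeks, 461 were tested at the later ages. At 5 months, 138 of them (29.9%) had the same sign of difference, against 45.2% of all 13807 genes. At 10 months, 255 (55.3%) had the same sign, against 52.7% of all genes. Without TBT 4 at 3 weeks the shares were 37.1% and 53.1%, against 47.7% and 49.8% of all genes. Genes are not independent of each other, so these shares are a description.

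By gene, Ms4a1 had a log2 fold change of -1.17 at 3 weeks, -0.02 at 5 months and 0.04 at 10 months. Cyp3a25 had 0.26, 0.1 and -0.2, Hpd 0.39, -0.07 and -0.14, and Mmp9 -1.57, -0.62 and 0.4. Rara was positive at every age, at 0.18, 0.25 and 0.18. Alox15 was at -3.05 at 5 months (edgeR adjusted p = 0.674), in the direction of its 3-week difference, and was too low to be tested at 10 months. None of these genes had an adjusted p under 0.05 at the later ages in edgeR.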

How the data were processed

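The authors deposited counts (whole numbers, not scaled to depth or gene length) of 55536 genes for all 75 libraries. Per the labels' protocols, RNA was taken with RNeasy, DNase-treated and made into TruSeq Stranded Total RNA libraries. Trim Galore, HISAT2, featureCounts and mm10 are named in the submitters' processing notes. Per the table's name, counts were adjusted between batches with ComBat-seq. The strand setting and the adjustment's group settings are not given in the sources used here, so overlapping and antisense genes are uncertain. All identifiers matched GENCODE M21 (GRCm38), the source of positions and lengths.

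Counts of S1 and S16 were summed. edgeR 4.0.16 in R 4.3.3 was used with TMM scaling, filterByExpr and robust quasi-likelihood F tests of 8 TBT against 7 vehicle mice, with Benjamini-Hochberg adjustment over all genes tested. SEs and 95% intervals follow from the F statistic. CPM are TMM-scaled, and log2 CPM used a prior count of 2. The spread was compared by an exact permutation test. The scripts were tested on simulated data. Alternatives were RLE size factors, other filters on low counts, DESeq2 1.42.0, limma-voom (limma 3.58.1) and a replicate block. Others were S1 or S16 alone, all 75 libraries together, protein-coding genes, leaving out mice and removing each library's trend with gene length.

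The comparison, the 36 gene lists and the tests were chosen with earlier results of these data known. Named genes were those with adjusted p under 0.05 in any fit, the 12 of smallest p in each direction with a mean of at least 1 CPM (predicted genes aside), of each list the 4 most abundant, the one of smallest p and all at unadjusted p under 0.05, all members of the receptor, PPAR and retinoic acid lists, the 12 most variable in vehicles, and Xist with 4 Y-linked genes. An erythroid gene that the rule takes is not reported here.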

Additional observations from a re-analysis of the deposited data

Results flagged for a closer look

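In each group the highest or lowest mouse was compared with the rest by Dixon's gap test. It used log2 CPM for the named genes and untransformed values for 5 measures of the libraries. Of 232 groups of values examined, 20 had a mouse apart. Independent, normally distributed values give about 1 in 20. These groups were not independent, since the Y-linked genes entered singly and as a sum and the muscle genes marked the same mice. TBT 4 accounted for 6 of them, with Xist at 314 CPM, Ddx3y at 3.7, Eif2s3y at 1.45, Kdm5d at 0.0536, Uty at 1.18 and the 4 Y-linked genes together at 6.38 CPM. In TBT 8 the ribosomal RNA locus took 11.7% of the counts, and Cited2 was at 11.2 CPM, below 13.5 in the next liver. Skeletal muscle genes stood out in vehicle 1 (Acta1 68.9 and Ckm 15.5 CPM) and in TBT 7 (Acta1 89.7 and Ckm 24.5 CPM).

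Vehicle 1 was also high for the pancreatic gene Cpb1 (1.74 CPM) and low for Ppara (88.8 CPM, next 158) and the bile acid receptor gene Nr1h4 (56.5 CPM, next 84.4). Vehicle 3, which includes S1, had 6.79% mitochondrial counts. Vehicle 5 had 1.3 CPM of Cyp26b1, which breaks down retinoic acid, against at least 9.37 CPM in the other vehicles. Vehicle 7 was high for Pcna (47.3 CPM) and low for Eif2s3y (37.1 CPM). TBT 5 had 559 CPM of Rgn, a pericentral gene, against at least 767 CPM in the other TBT livers.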

How the results depend on the processing

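The count of genes at an adjusted p under 0.05 was 0 under every alternative run except without a filter on low counts, where it was 3, and 5 when TBT 4 was also left out. The count at an unadjusted p under 0.05 (474) was 3776 of 44030 (8.58%) without the filter and 1191 of 29706 (4.01%) with all 75 libraries in a fit. The median log2 SD ratio of 0.045 turned to -0.231 with S1 alone for vehicle 3 and to -0.122 without TBT 4 and 8, and ran from -0.033 to 0.127 with each mouse left out in turn. The share of same-sign genes at 5 months was 37.1% without TBT 4, against 47.7% of all genes. The causes were not tested.

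Of 12 neutrophil genes tested, 10 lay lower without the filter, 9 in DESeq2 and 8 with all libraries. Of all genes, 2205 of 44030, 299 of 44030 and 619 of 29706 lay lower in those fits. Of the 6 otherwise tested, 1 lay lower in limma-voom, 1 without vehicles 3 and 5, and 0 among genes of at least 5 CPM, where no member was tested. Of all genes, 232 of 14050 lay lower in limma-voom and 174 of 14227 without vehicles 3 and 5. With each mouse left out the neutrophil count ran from 2 to 6, and that of all genes lying lower from 152 to 309. Of the erythroid genes, 1 lay lower among genes of at least 5 CPM, 2 with all libraries, 2 without TBT 4 and 8, 0 without vehicles 3 and 5, and 2 to 6 with each mouse left out. Of all genes, 174 of 9773 lay lower at 5 CPM or more and 185 of 14054 without TBT 4 and 8. Of the xenobiotic genes, 2 lay higher among genes of at least 5 CPM, 2 with all libraries, 1 without vehicles 3 and 5, 2 without vehicle 1 and TBT 7, 1 without TBT 4 and 8, and 1 to 5 with each mouse left out. Of all genes, 172 of 9773, 572 of 29706, 173 of 14227, 346 of 14055 and 212 of 14054 lay higher, in that order. With each mouse left out, 184 to 354 of all genes lay higher. S100a8 turned to a log2 fold change of 0.09 without vehicles 3 and 5. For 106 named genes, 2 of 3155 values under the alternatives crossed the adjusted threshold, those of Mmp9 and Cited2 without the filter. The sign changed in 1 of 1211 values of the 41 genes at an unadjusted p under 0.05, that of S100a8, and in 151 of 1944 values of the other 65 genes.

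Mouse numbers recur in both groups, but same-numbered mice correlated at -0.186 to 0.23, with 4 of 7 pairs over 0.1 and 4 of 7 best with their own number. Not every pair was over 0.1, so the numbers were not used as pairs, and the 4 best matches are a hint from the data only. A fit with the number as a replicate block called 0 genes, and 452 at an unadjusted p under 0.05. The fits left a median half-width of 0.28 for the 95% interval of a log2 fold change.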

Other observations

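Some genes of other groups varied widely among the livers. H19, an imprinted RNA of fetal liver, ran from 82.4 to 740 CPM in vehicles and from 43.2 to 778 CPM in TBT livers, with a log2 fold change of 0.31 ± 0.52 (SE). Cyp7a1, the rate-limiting enzyme of bile acid synthesis, ran from 11.8 to 109 CPM in vehicles and from 24.3 to 120 in TBT livers. The metal-binding gene Mt1 had 263 to 550 CPM in vehicles and reached 1220 in TBT 3 and 1030 in TBT 5. Igf1, the growth factor that liver makes under growth hormone, had 508 to 833 CPM in vehicles, 323 in TBT 4 and 1120 in TBT 8.

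The summed level of 12 pancreatic acinar markers was 26.6 CPM in vehicle 1, 20.7 in TBT 1, 27.8 in TBT 2, 13.1 in TBT 6, 7.75 in TBT 3 and 5.55 in vehicle 2, and 0.84 to 3.12 in the others. Ctrb1, a digestive enzyme precursor, had 2.5 CPM in vehicle 1, 2.58 in TBT 1 and 8.71 in TBT 2, and at most 0.694 CPM in the others. The circadian clock list stood at 0.86 above the vehicle mean in TBT 6, where the vehicles ran from -0.16 to 0.3, and TBT 6 was also the lowest liver for cholesterol synthesis.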
